A study of Arabidopsis thaliana with 18 samples.

Results

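*BCAT4* (AT3G19710), *GSTU20* (AT1G78370) and *AOP3* (AT4G03050) are 3 *Arabidopsis thaliana* genes of aliphatic glucosinolate synthesis. They were chosen by name, and each was represented by 1 probe set of the ATH1 GeneChip that the platform annotation assigns to that gene alone. They are 3 of the 13286 genes named in this way on 22746 probe sets, of which 8730 had no gene in the annotation table and 503 had several. Expression was measured in the aerial parts of 18-day-old seedlings on 18 arrays, 3 per group. The 6 groups were *pad2-1* under MV, WT under MV, *pad2-1* under P-lim, WT under P-lim, *pad2-1* control and WT control. The *pad2-1* mutant carries a defect in *GSH1*, the gene of the first enzyme of glutathione synthesis, and both genotypes are of the Col-0 ecotype. Under MV, the medium held methyl viologen, a herbicide that makes chloroplasts produce reactive oxygen species. Under P-lim, the phosphate of the Murashige and Skoog medium was reduced to 20%, and control plants grew on the full medium. The study's methods give the methyl viologen dose as 0.05 μM, which is taken here, while the sample labels give it as 0.05 M. Of the labels of the stressed WT arrays, the description names the normal medium, while the titles and the treatment field name the stress by which they were grouped here.

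Glucosinolates are sulfur-rich defence compounds of the cabbage family that are cleaved into toxic products when tissue is damaged. The aliphatic ones are made from methionine in 3 stages. The amino acid is first lengthened, starting with its deamination by the aminotransferase *BCAT4*. The lengthened amino acid is then converted into the core structure, and at 1 step of this stage glutathione provides the reduced sulfur, a reaction to which the tau class glutathione transferase *GSTU20* has been linked. The side chain is modified last, for example by *AOP3*, a 2-oxoglutarate-dependent dioxygenase that forms hydroxyalkyl side chains. The accession Columbia is known to lack *AOP3* expression in leaves.

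On the log2 scale of the deposited values, *BCAT4* and *GSTU20* were measured by bright probe sets and *AOP3* by a dim one. The mean over the 18 arrays was 11.16 for *BCAT4*, at percentile 98.4 of all probe set means, and 11.64 for *GSTU20*, at percentile 99.04. *AOP3* had a mean of 3.92 at percentile 26.0, while the lower quartile of single arrays lay between 3.80 and 3.91. Brightness also depends on the probes, so these percentiles place each probe set on the array and do not rank the transcripts. Of the leaf markers listed, 1 of 8 was measured, the gene of rubisco activase (*RCA*), which ranged from 13.16 to 13.29 over the 18 arrays. Of the root markers, 3 of 10 were measured: *EXPA7* and *EXPA18* of root hairs had means of 4.25 and 4.02, close to the lower quartile, and *PYK10*, a beta-glucosidase of endoplasmic reticulum bodies, had one of 9.08. In whole aerial parts, fewer cells that express a gene and less RNA per cell cannot be told apart.

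*BCAT4* was highest in *pad2-1* under MV and lowest in WT under MV. Under MV it had log2 values of 11.49, 11.62 and 11.64 in *pad2-1*, against 11.12, 10.34 and 10.79 in WT. Under P-lim it had 11.37, 11.43 and 11.41 in *pad2-1*, against 11.11, 11.27 and 11.33 in WT. In control plants it had 10.55, 10.88 and 11.06 in *pad2-1*, against 11.09, 11.11 and 11.19 in WT. The arrays of the 2 genotypes did not overlap in any of the conditions, with *pad2-1* above WT under both stresses and below WT in control plants. Of all probe sets, 8.23% under MV and 12.1% under P-lim had every *pad2-1* array above every WT array, and 14.1% in control plants had every *pad2-1* array below.

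*GSTU20* had its highest mean in *pad2-1* under MV as well, and its lowest in WT control. Under MV its values were 11.84, 11.86 and 12.03 in *pad2-1*, against 11.83, 11.50 and 11.59 in WT. Under P-lim they were 11.81, 11.86 and 11.78 in *pad2-1*, against 11.58, 11.72 and 11.62 in WT. In control plants they were 11.25, 11.57 and 11.49 in *pad2-1*, against 11.27, 11.41 and 11.48 in WT. Under MV and P-lim every *pad2-1* array lay above every WT array, under MV by as little as the gap between 11.84 and 11.83, and in control plants the genotypes overlapped. Such a separation was found for 8.23% of all probe sets under MV and 12.1% under P-lim.

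*AOP3* stayed near the lower quartile on every array, between 3.73 and 4.08. Under MV it had values of 3.73, 3.91 and 3.96 in *pad2-1*, against 4.05, 4.04 and 3.90 in WT. Under P-lim it had 3.85, 3.86 and 3.85 in *pad2-1*, against 3.98, 3.86 and 4.07 in WT. In control plants it had 3.85, 3.93 and 3.88 in *pad2-1*, against 4.08, 3.99 and 3.77 in WT. The WT mean was the higher one in all 3 conditions, but only under P-lim did the arrays not overlap, with the lowest WT and the highest *pad2-1* array both at 3.86. Of all probe sets, 11.1% had every *pad2-1* array below every WT array under P-lim.

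**Figure D1:**
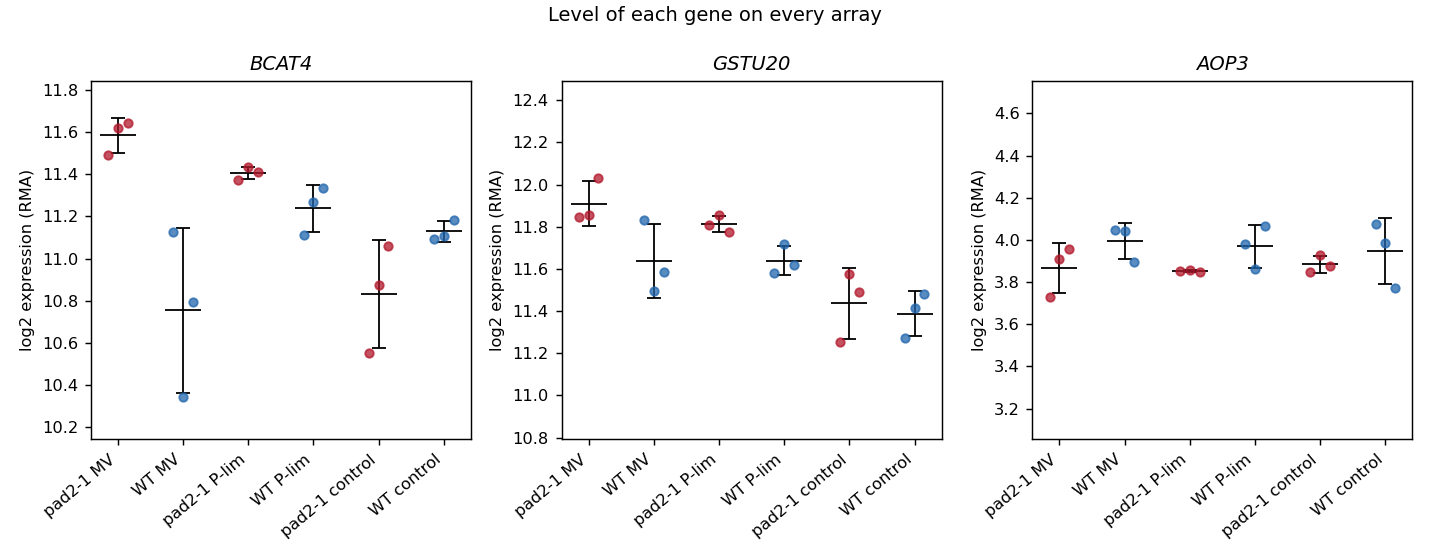
Level of *BCAT4*, *GSTU20* and *AOP3* on each of the 18 arrays (y axis, log2 RMA expression, with a span of equal size but a different start for each gene) in the 6 groups (x axis), with *pad2-1* in red and WT in blue, the mean as a long bar and 1 SD (n = 3) as whiskers. *BCAT4* and *GSTU20* have their highest group mean in *pad2-1* under MV, and *AOP3* stays between 3.73 and 4.08.

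Whether the *GSH1* defect of *pad2-1* went with another level of these genes was asked within each growth condition. The test was 1 limma fit to the 18 arrays, with Benjamini-Hochberg adjustment over all 22746 probe sets. A gene was called where its adjusted p was under 0.05. Each array was hybridized with a single biological replicate, so the spread between arrays holds both plant and array differences.

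Within MV, 1 of the 3 genes passed the test. *BCAT4* averaged 11.58 ± 0.08 in *pad2-1* and 10.75 ± 0.39 in WT (SD, n = 3 each), a log2 difference of 0.83 (SE 0.14, 95% interval 0.53 to 1.13), or 1.78-fold, with an adjusted p of 0.00133 in limma. Of all probe sets, 5.16% were called in this comparison and 2.34% as higher in *pad2-1* (45.4% of the calls, or 57.8% with all arrays set to the same median), and *BCAT4* stood at rank 299 by p and at percentile 99.4 by the size of its difference. Its WT mean rested on arrays that lay wide apart, with a SD of 0.39 against SDs of 0.03 to 0.26 in the other 5 groups. Without WT MV replicate 2, the lowest of the 18 arrays, the difference was 0.62 with an adjusted p of 0.00435 in limma, and without WT MV replicate 1 it was 1.02 with an adjusted p of 0.000136. The mean of the 3 measured root markers overlapped between genotypes under MV, at 5.79 to 6.02 in *pad2-1* and 5.82 to 5.97 in WT. This mean pools opposite signs. *EXPA7* had a log2 difference of 0.24 (unadjusted p = 0.00397, adjusted p = 0.0649 in limma), *PYK10* one of -0.19 (adjusted p = 0.519) and *EXPA18* one of 0.0036 (adjusted p = 0.99). Their part in the *BCAT4* difference was not tested.

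*GSTU20* averaged 11.91 ± 0.10 in *pad2-1* and 11.64 ± 0.18 in WT under MV (SD, n = 3 each). The log2 difference of 0.27 (SE 0.09, 95% interval 0.08 to 0.46) had an unadjusted p of 0.00802 and an adjusted p of 0.0973 in limma, so it did not pass. Without WT MV replicate 1, the WT array nearest to *pad2-1*, the difference was 0.37 and was called, with an adjusted p of 0.0262 in limma. *AOP3* averaged 3.87 ± 0.12 in *pad2-1* and 3.99 ± 0.09 in WT, with a log2 difference of -0.13 (95% interval -0.29 to 0.03, adjusted p = 0.411 in limma).

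Within P-lim, none of the 3 genes passed limma's test at either the adjusted or the unadjusted threshold, with a background of 5.31% of all probe sets called. *BCAT4* averaged 11.41 ± 0.03 in *pad2-1* and 11.24 ± 0.11 in WT, with a log2 difference of 0.17 (95% interval -0.13 to 0.47, adjusted p = 0.627 in limma). *GSTU20* averaged 11.81 ± 0.04 in *pad2-1* and 11.64 ± 0.07 in WT, with nearly the same difference of 0.17 (95% interval -0.02 to 0.37, adjusted p = 0.349). For *AOP3* the means were 3.85 ± 0.01 in *pad2-1* and 3.97 ± 0.10 in WT, and the difference was -0.12 (95% interval -0.28 to 0.05, adjusted p = 0.506). The mean log2 value of the 3 measured root markers overlapped between genotypes in this condition, at 5.82 to 6.01 in *pad2-1* and 5.65 to 5.85 in WT. Of these 3, *PYK10* was called, with a log2 difference of 0.53 and an adjusted p of 0.0332 in limma, while *EXPA7* had one of 0.05 (adjusted p = 0.815) and *EXPA18* one of -0.0049 (adjusted p = 0.991). The part of *PYK10* in the values above was not tested.

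In control plants the sign of the *BCAT4* difference was the opposite one. It averaged 10.83 ± 0.26 in *pad2-1* and 11.13 ± 0.05 in WT (SD, n = 3 each), with a log2 difference of -0.30, an unadjusted p of 0.0499 and an adjusted p of 0.286 in limma. This value leaned on *pad2-1* control replicate 1, the lowest array of its group, without which the difference was -0.16. *GSTU20* averaged 11.44 ± 0.17 in *pad2-1* and 11.39 ± 0.11 in WT, with a difference of 0.05 (adjusted p = 0.861 in limma), and *AOP3* averaged 3.88 ± 0.04 in *pad2-1* and 3.95 ± 0.16 in WT, with one of -0.06 (adjusted p = 0.78). None of the 3 genes was called here, with 6.35% of all probe sets called.

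The genotype differences of the 3 conditions were then set against each other. For *BCAT4* the difference under MV exceeded that in control plants by 1.13 log2 units (95% interval 0.71 to 1.55, adjusted p = 0.00535 in limma), the only one of the 3 genes to pass the interaction test, which called 1.65% of all probe sets and 0.589% as higher. For P-lim the *BCAT4* interaction was 0.47, with an unadjusted p of 0.0324 and an adjusted p of 0.439 in limma, so it did not pass (0.725% of all probe sets called).

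The genotype difference of *BCAT4* was also 0.66 log2 units larger under MV than under P-lim (95% interval 0.24 to 1.09), with an unadjusted p of 0.00409 and an adjusted p of 0.127 in limma. None of the 3 genes was called in this comparison, in which 1.3% of all probe sets were. Without WT MV replicate 1 the value for *BCAT4* was 0.85 and was called (adjusted p = 0.023 in limma). For *GSTU20* the interactions were 0.22 for MV and 0.12 for P-lim, and the difference between MV and P-lim was 0.10, with adjusted p-values of 0.531, 0.835 and 0.812 in limma. For *AOP3* the 3 values lay between -0.07 and -0.01 (adjusted p 0.876 to 0.978 in limma). An interaction of *GSTU20* was bounded by intervals of -0.05 to 0.49 for MV and -0.15 to 0.40 for P-lim, so a difference as large as that of *BCAT4* under MV lay outside both.

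Within each genotype, *BCAT4* and *GSTU20* were the 2 of the 3 genes called as higher under each stress in *pad2-1*, and 0 of the 3 were called in WT by limma, with 2 at an unadjusted p under 0.05 for MV and 1 for P-lim. Called among all probe sets were 8.01% for MV and 11.8% for P-lim in *pad2-1*, and 13.5% for MV and 9.21% for P-lim in WT. Each stress shares its control arrays with the other, and the adjusted p-values of both genes in *pad2-1* lay between 0.00212 and 0.0113 in limma. Without *pad2-1* control replicate 1, the lowest control array for both, the P-lim calls were lost (adjusted p = 0.0695 for *BCAT4* and 0.0629 for *GSTU20*). The mean of the 3 measured root markers also differed between these groups without overlap, at 5.79 to 6.02 under MV and 5.82 to 6.01 under P-lim against 5.52 to 5.75 in control plants of *pad2-1*. Of the 3, *PYK10* was called for P-lim in *pad2-1* (0.65, adjusted p = 0.00447 in limma) and for MV in WT (0.80, adjusted p = 0.000703), and its part in these results was not tested. The WT values of the 2 genes differed in sign under MV. *BCAT4* had a log2 difference of -0.37 between MV and control plants of WT (95% interval -0.67 to -0.08, adjusted p = 0.0969 in limma), which was -0.56 and called without WT MV replicate 1 (adjusted p = 0.00802) and -0.17 without WT MV replicate 2 (adjusted p = 0.432). *GSTU20* had one of 0.25 (95% interval 0.06 to 0.44, adjusted p = 0.0813), which was 0.32 and called without WT MV replicate 2 (adjusted p = 0.0413) and 0.15 without WT MV replicate 1 (adjusted p = 0.351). Under P-lim in WT the differences were 0.11 for *BCAT4* (adjusted p = 0.731) and 0.25 for *GSTU20* (adjusted p = 0.1). The WT arrays of *GSTU20* under each stress all lay above those of the control, as did 18.1% of all probe sets under MV and 16.5% under P-lim. Its differences had the same sign in both genotypes, while those of *BCAT4* under MV did not.

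Over the 6 groups, the order of the *BCAT4* means was *pad2-1* MV, *pad2-1* P-lim, WT P-lim, WT control, *pad2-1* control and WT MV, with a range of 0.83 log2 units. Neighbours in this order differed by 0.18, 0.17, 0.11, 0.30 and 0.08, and the 4 of these steps that limma compared did not pass (adjusted p 0.286 to 0.731). The arrays overlapped at the steps of 0.11 and 0.08 and lay apart at the other 3. *GSTU20* followed the same order for the first 3 places, then WT MV, *pad2-1* control and WT control, with a range of 0.52. Its arrays lay apart only between *pad2-1* P-lim and WT P-lim, and WT had practically the same mean under MV and P-lim, 11.64. The *AOP3* means spanned 0.14, with the 3 WT groups first, and every pair of neighbours overlapped.

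Between the stresses themselves, *BCAT4* was lower under MV than under P-lim in WT, by a log2 difference of -0.48 (adjusted p = 0.0341 in limma, 11.2% of all probe sets called). In *pad2-1* this difference was 0.18 (adjusted p = 0.515, 9.5% of all probe sets called). The call in WT was lost with only the compared arrays in the fit (adjusted p = 0.115 in limma), with a trended and robust variance prior (0.0771), and without any 1 of 4 arrays, replicate 2 or 3 of either group (adjusted p up to 0.168). The value was -0.28 without WT MV replicate 2 and -0.67 without WT MV replicate 1. *PYK10* was higher in the same comparison (0.45, adjusted p = 0.0475 in limma), and its part was not tested. *GSTU20* had differences of 0.10 in *pad2-1* (adjusted p = 0.594) and of 0.00 in WT (adjusted p = 0.998).

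The other listed genes of aliphatic glucosinolate synthesis, regulation and transport numbered 36, of which 8 had a single-gene probe set. The counts below leave out the rest, among them *MAM*, *MYB29* and *FMO* genes that the paper reports from these arrays. Within MV, 2 of the 8 were higher in *pad2-1*, 2 were lower and 4 did not pass, where 5.16% of all probe sets were called and 2.34% as higher. Their median log2 difference was -0.17 against -0.02 for all probe sets. It pools the enzyme genes *UGT74B1*, *UGT74C1* and *GSL-OH*, with positive differences, and *AOP1*, *MYC3*, *MYC4*, *GTR1* and *GTR2*, with negative ones. *UGT74C1*, a glucosyltransferase of the core structure, averaged 9.68 in *pad2-1* and 9.37 in WT, with a log2 difference of 0.31 (adjusted p = 0.0142 in limma). *GSL-OH*, a dioxygenase that hydroxylates the side chain, ranged from 10.93 to 11.06 in *pad2-1* and from 10.28 to 10.78 in WT, with a difference of 0.43 (adjusted p = 0.00939).

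Both of the lower genes act outside the enzyme chain. *MYC3*, a transcription factor that partners the MYB regulators of the pathway, averaged 6.36 in *pad2-1* and 6.63 in WT under MV, with a difference of -0.27 (adjusted p = 0.0339 in limma). *GTR1*, a glucosinolate transporter, averaged 8.70 in *pad2-1* and 8.96 in WT, with one of -0.25 (adjusted p = 0.0439). With only the 6 arrays of MV plants in the fit none of these 4 passed, at adjusted p-values of 0.0747 to 0.122 in limma, whereas *BCAT4* kept its call at 0.0199. *GSL-OH* kept its call with any 1 array left out, *UGT74C1* lost it without *pad2-1* MV replicate 2 or 3 or WT MV replicate 2 (adjusted p = 0.054, 0.0556 and 0.0709), and *MYC3* lost it without any of 5 and *GTR1* without any of 12 arrays.

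Within P-lim 0 of the 8 genes passed limma's test in either direction, where 5.31% of all probe sets were called. At an unadjusted p under 0.05 there were 2, and the median difference was 0.08 against 0.00 for all probe sets. In control plants 7 of the 8 did not pass, with 6.35% of all probe sets called. *UGT74B1*, the other measured glucosyltransferase, was lower there in *pad2-1*, at 8.98 against 9.32 in WT (log2 difference -0.34, adjusted p = 0.0135 in limma). This call was lost without *pad2-1* control replicate 1 or WT control replicate 2 (adjusted p = 0.0707 and 0.0955), and with only the compared arrays in the fit (0.0609). *BCAT4*, *UGT74B1* and *UGT74C1* shared a pattern of signs, with the *pad2-1* mean below WT in control plants and above it under MV, although the *UGT74B1* difference within MV (0.20, adjusted p = 0.178 in limma) and the *UGT74C1* difference in control plants (-0.16, adjusted p = 0.252) did not pass. *UGT74B1* and *UGT74C1* passed the interaction test for MV, with values of 0.54 and 0.46.

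**Figure D2:**
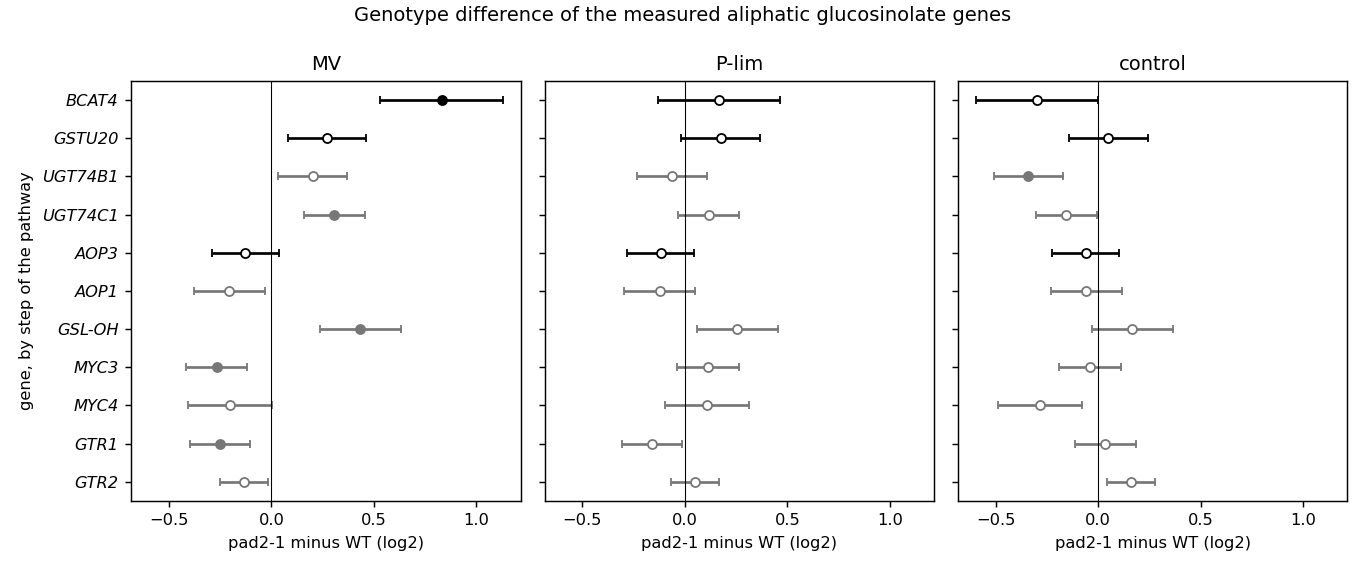
Genotype difference (x axis, *pad2-1* minus WT, log2) of the 11 measured aliphatic glucosinolate genes (y axis, by step of the pathway) within MV, P-lim and control, with 95% intervals from limma, black for *BCAT4*, *GSTU20* and *AOP3*, grey for the others, and filled points for adjusted p under 0.05. *BCAT4* has the largest difference of the 11 within MV, at 0.83, and no gene is called within P-lim.

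*BCAT4* and *GSTU20* also varied together among arrays of the same group. The array with the lowest *BCAT4* value was also the one with the lowest *GSTU20* value in 5 of the 6 groups, and the highest arrays matched in 4. In WT under MV, replicate 2 was the lowest and replicate 1 the highest for both genes. In *pad2-1* under MV, WT under P-lim, *pad2-1* control and WT control, replicate 1 was the lowest for both. The deviations from the group means had a Pearson correlation of 0.78 over the 18 arrays, which share groups of 3 and a common normalization. Over the 11372 other probe sets with a mean above the median, the deviations correlated with those of *BCAT4* at a median r of 0.13, with an upper 95% point of 0.65, and *GSTU20* ranked 112. *AOP3* deviated with neither, at r of 0.07 with *BCAT4* and -0.01 with *GSTU20*.

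Among the 8 other pathway genes, *UGT74C1* had the highest such correlations, 0.77 with *BCAT4* and 0.84 with *GSTU20*. *GSL-OH* followed for *BCAT4* at 0.69, and its lowest array under MV in WT was again replicate 2, at 10.28 against 10.78 and 10.64 in the other 2. The regulators *MYC3* and *MYC4* had r of -0.01 and 0.13 with *BCAT4*, and of 0.45 and 0.0019 with *GSTU20*. For *GSTU20* the transporter *GTR1* came next after *UGT74C1*, at 0.62.

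**Figure D3:**
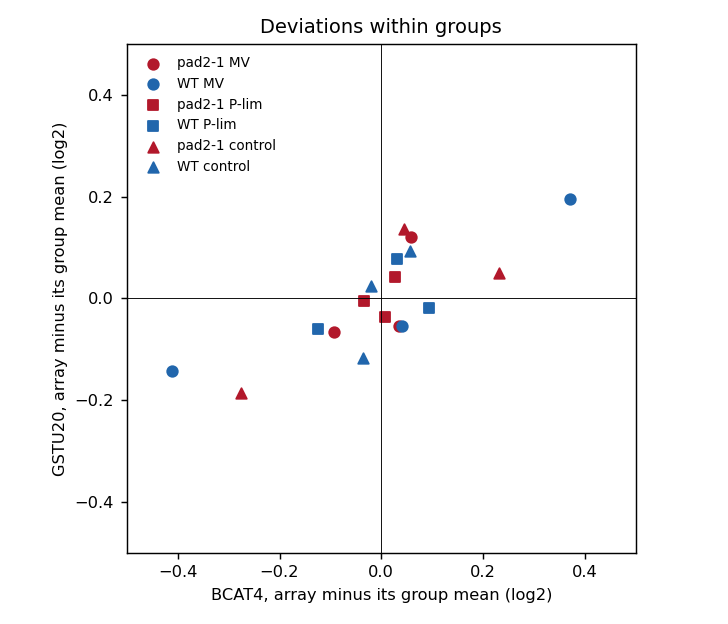
Deviation of each of the 18 arrays from the mean of its group in log2 units, *BCAT4* on the x axis and *GSTU20* on the y axis, with red for *pad2-1*, blue for WT, and circles, squares and triangles for MV, P-lim and control. The points run from lower left to upper right (r = 0.78), and replicates 1 and 2 of WT under MV lie at the ends.

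The genes whose levels over all 18 arrays were most like each of the 3 were taken from the named single-gene probe sets brighter than the median. For *BCAT4*, of 6045 candidates, AT1G21440 came first at r = 0.90. Next was *CBL* (AT3G57050), which encodes cystathionine beta-lyase of methionine synthesis, at r = 0.86. AT1G19450, AT5G58090 and *UGT74C1* followed at 0.79, 0.78 and 0.76. *CBL* averaged 9.43 in *pad2-1* and 9.27 in WT under MV, 9.40 in *pad2-1* and 9.31 in WT under P-lim, and 9.22 in *pad2-1* and 9.32 in WT in control plants, the same signs as *BCAT4* on a smaller scale.

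For *GSTU20* the likest gene was *CLE41*, which encodes a signalling peptide of the vascular meristem, at r = 0.93. AT5G45650, AT3G23570, AT2G26690 and AT5G58330 followed at r of 0.89 to 0.92. No listed glucosinolate gene was among its 5, and *BCAT4* and *GSTU20* themselves had r = 0.72. For *AOP3* the highest r was 0.71, with AT3G49310. These values are descriptions over 18 arrays that share groups and normalization.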

How the data were processed

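Total RNA from aerial parts was hybridized to Affymetrix ATH1 arrays. The deposited values are log2 expression per probe set, which the authors obtained from the scanned arrays by robust multi-array average (RMA), that is background correction, quantile normalization and summarization over probes; no depth applies, and the 3 arrays per group limit the precision. The 64 manufacturer control probe sets were left out. Genes were named from GEO's platform annotation, which lists 14016 of 22810 probe sets (13513 with 1 gene), through RefSeq loci of TAIR10.1, and 13436 matched. With limma 3.58.1 in R 4.3.3, 6 group means were fitted to the 18 arrays (12 residual degrees of freedom) and 12 contrasts were tested, after a trial on simulated data. Named were the 3 genes, the measured genes of the lists and, per gene, the 5 likest probe sets by Pearson r. The genes and lists were chosen with earlier results of these data known. Alternatives were a fit to the compared arrays only, the dimmer 50% of probe sets left out, median scaling, trend with robust variance, blocking on the replicate number, leaving out single arrays, and a minimum log2 size of 1. Lists of indolic glucosinolates, chain elongation, breakdown and flower markers had 0 genes with a single-gene probe set in this annotation. Measured here means named in this way. A gene counted as not measured can still be among the 8730 probe sets without a gene. The paper reports *MAM*, *MYB29*, *BCAT* and *FMO* transcripts from these arrays as raised in *pad2-1* under the stresses. Under MV it reports all of these except *MAM* as significantly higher in *pad2-1* than in WT. Promoter sequences were not analysed here.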

Additional observations from a re-analysis of the deposited data

Results flagged for a closer look

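The genotype difference changed with MV treatment for *BCAT4*, by 1.13 log2 units between MV and control plants (adjusted p = 0.00535 in limma's interaction test). With each of the 18 arrays left out in turn the value lay between 0.92 and 1.32 and kept its call.

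Besides *BCAT4*, 3 of the 18 measured genes of the lists passed the same test, with 1.65% of all probe sets called and 0.589% as higher. It gave 0.54 for *UGT74B1* (adjusted p = 0.0169 in limma), 0.46 for *UGT74C1* (adjusted p = 0.0204) and 0.46 for *ATPS3*, an ATP sulfurylase that starts sulfate assimilation (adjusted p = 0.00588). For *ATPS3* the genotype difference under MV also exceeded that under P-lim, by 0.36 log2 units (adjusted p = 0.0366 in limma, and 0.0816 with only the compared arrays in the fit). Within MV itself the *ATPS3* difference was 0.10 and did not pass (adjusted p = 0.381 in limma). Its *pad2-1* mean was below WT in control plants and under P-lim, by differences of -0.36 and -0.26. The calls of *UGT74B1* were lost without either of 2 arrays and those of *UGT74C1* without any of 3, among them *pad2-1* MV replicate 2 (adjusted p = 0.0504 and 0.0524) and WT control replicate 2 (adjusted p = 0.0527 and 0.059), and that of *ATPS3* between the stresses without any of 12 of the 18 (adjusted p up to 0.105). With only the compared arrays in the fit, the *UGT74C1* interaction lost its call as well (adjusted p = 0.0633 in limma).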

How the results depend on the processing

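The *BCAT4* difference within MV kept its call in every alternative fit, with adjusted p-values from limma of 0.0199 with only the compared arrays and 0.000136 to 0.00947 with single arrays left out (values 0.62 to 1.02), but its 0.83 is below the minimum log2 size of 1. Leaving out single arrays moved 2 values between genotypes past the threshold, the *GSTU20* difference within MV (0.20 to 0.37) and the *BCAT4* difference between MV and P-lim (0.46 to 0.85), both without WT MV replicate 1. Between treatments, *BCAT4* and *GSTU20* each gained a call for MV in WT (-0.56 to -0.17 and 0.15 to 0.32) and lost one for P-lim in *pad2-1* (0.44 to 0.69 and 0.28 to 0.44), and *BCAT4* lost that for MV against P-lim in WT (-0.67 to -0.28). It turned the sign of small values: the *GSTU20* difference in control plants (-0.018 to 0.14) and between the stresses in WT (-0.10 to 0.071), and for *AOP3* the difference in control plants (-0.15 to 0.0055), the interactions for MV (-0.13 to 0.019) and P-lim (-0.12 to 0.031), the difference between MV and P-lim (-0.062 to 0.056), MV against control (-0.064 to 0.049 in *pad2-1* and -0.037 to 0.12 in WT), P-lim against control in WT (-0.062 to 0.090), and MV against P-lim (-0.032 to 0.081 in *pad2-1* and -0.028 to 0.075 in WT). With all arrays set to the same median, *AOP3* turned to 0.040 for the difference between MV and P-lim and to -0.024 for MV against P-lim in WT, and its level in *pad2-1* under P-lim moved to 3.84. The causes were not tested.

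Over all probe sets, replicate numbers did not pair the samples, with 2 of 45 correlations of same-numbered deviations over 0.1. For *BCAT4*, replicate 1 was the lowest array in every group except WT under MV, where it was the highest. Whether this came from a batch was not tested. With the replicate number as a block, the *BCAT4* difference within MV was 0.83 (adjusted p = 0.00212 in limma), and no call of the 3 genes changed, while those of *GTR1* within MV (0.0601), *BCAT5* in control plants (0.0519) and *ATPS3* between MV and P-lim (0.0566) were lost. Called within MV were 1174 probe sets, 678 with only the compared arrays and 86 with a minimum log2 size of 1. With single arrays left out, the lowest counts were 732 against 1174 within MV, 690 against 1207 within P-lim, 945 against 1444 in control plants, 240 against 376 and 90 against 165 for the interactions with MV and P-lim, and 135 against 296 between MV and P-lim. For the other 11 comparisons that size left 43 to 205, and fitting the compared arrays alone gave 1031 against 1821, 1714 against 2687 and 1432 against 2161 for MV against control, P-lim against control and MV against P-lim in *pad2-1*. Setting the arrays to the same median changed the share of calls that were higher to 45% against 59.3% within P-lim, 56.8% against 36.1% between MV and P-lim, 41.2% against 58.9% for MV in WT and 36.6% against 59.1% for MV against P-lim in WT.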

Other observations

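*ATPS3* was lower in *pad2-1* than in WT in control plants, with a log2 difference of -0.36 (adjusted p = 0.000577 in limma), and under P-lim, with one of -0.26 (adjusted p = 0.0114, and 0.0556 with only the compared arrays in the fit). It was the only measured one of 6 listed genes of sulfate and glutathione supply.

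Of 11 listed relatives of the 3 genes, 6 were measured, and 0 of the 6 passed limma's test between genotypes under MV or P-lim, with 1 at an unadjusted p under 0.05 under MV and 2 under P-lim. Of all probe sets, 5.16% were called under MV and 5.31% under P-lim, so 0 of 6 does not set these genes apart. In control plants *BCAT5*, a chloroplast aminotransferase, was lower in *pad2-1*, with a log2 difference of -0.17 (adjusted p = 0.0318 in limma, and 0.111 with only the compared arrays in the fit). *BCAT5* and *BCAT6* were higher under P-lim than in control plants of *pad2-1*, by 0.23 and 0.49 (adjusted p = 0.00256 and 0.00179 in limma). *GSTU20* lies between *GSTU21* and *GSTU19* in the TAIR10.1 gene table, and *GSTU21*, which was measured, had means of 3.83 in *pad2-1* and 3.71 in WT under MV. The *GSTU21* probe set was dim, with a mean of 3.80 at percentile 24.1, so these values say little about its transcript. *GSTU25* had the largest genotype difference of the 6 under P-lim, 1.31, with means of 4.798 in *pad2-1* and 3.488 in WT, and did not pass (adjusted p = 0.0739 in limma). Its *pad2-1* arrays ran from 3.69 to 5.69 there. The *GSTU25* difference was also positive in control plants, at 1.14 (adjusted p = 0.121 in limma), and under MV, at 0.92 (adjusted p = 0.23). *GSTU23* was lower under MV than in control plants in both genotypes. The log2 difference was -0.85 in WT (adjusted p = 4.13e-05 in limma) and -0.42 in *pad2-1* (adjusted p = 0.0283, lost without any of 5 arrays). Its interaction of genotype and MV did not pass (adjusted p = 0.237).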
